A study of Mus musculus with 18 samples.

Results

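The 10 genes described here belong to Wnt signalling and were picked by name from the deposited table of read counts. The choice used no threshold on their values, but was made with earlier results of these data known. They are the ligand Wnt5a, the secreted modulators Sfrp1, Sfrp2, Sfrp4, Frzb, Wif1, Dkk2 and Dkk3, and the transcriptional targets Axin2 and Lef1. The table holds 55453 gene symbols, and all 10 were in it. Of the 10 genes, 9 passed the filter on low counts, and Lef1 did not.

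Bulk RNA sequencing was done on GFP+ cells sorted from the apical side of the ventricles. The pups of all 6 groups were C57BL/6J, carried 1 copy each of Tcf21-MerCreMer and Rosa-mTmG, and received tamoxifen at P1, which activates MerCreMer in cells that use the Tcf21 promoter and switches them and their descendants from tdTomato to GFP. Each group held 3 libraries. P2 baseline and P10 baseline pups had no surgery and were collected at P2 and P10. The remaining pups were operated on at P2 and collected at P5, or at P10 and collected at P13, 3 days after surgery in each case. Sham surgery gave the P2 sham and P10 sham groups, and apical resection gave the P2 resected and P10 resected groups (marked +3 days in the plots). The 3 P2 groups together are called the P2 window, in which the heart can regenerate, and the 3 P10 groups the P10 window, in which it cannot. The sort followed recombination at P1, so cells that first used Tcf21 later than the tamoxifen remained unlabelled. Neither the sex nor the number of pups behind a library was stated, and nothing said that replicates came from separate animals, so p-values measure only the spread between these samples.

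Wnt ligands are lipid-modified secreted proteins that bind Frizzled receptors. In the canonical branch, Frizzled and Lrp5 or Lrp6 at the cell surface stop the destruction of beta-catenin, which then acts with TCF/LEF factors on target genes. In the non-canonical branch, ligands such as Wnt5a act through receptors such as Ror2 on cell shape and movement. Secreted proteins of the Sfrp family, Frzb and Wif1 bind the ligands themselves, while the Dickkopf proteins act mainly on the Lrp co-receptors. In the heart, cardiac fibroblasts are known as a source of several of these secreted modulators.

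Library depth was 10462737 to 22980554 reads on genes. Levels are given as CPM, counts divided by the scaled total of their library. A count of 0 allowed up to 3 counts, which was 0.128 to 0.296 CPM depending on the library, and this limit covers counting error only. All 8 fibroblast markers were detected in every group, with summed levels of 44464 to 103854 CPM. Transcripts of other cell types were present in each group, with summed levels of 8 cardiomyocyte markers at 136 to 1296 CPM and of 9 macrophage markers at 5.29 to 983 CPM. Those of 8 mural cell markers were at 512 to 1984 CPM. Those of 8 endothelial markers were at 176 to 482 CPM, where Tek alone ran from 154 to 454 CPM. In the P2 sham, P10 baseline and P10 sham groups, replicate 1 stood apart, with a chi-square per gene against each of the other 2 libraries over 2 times that between those libraries. For P10 sham replicate 1 the chi-square per gene was 149 and 160 against the other 2 libraries, which differed from each other by 35.5. This library was the highest of its group for Wnt5a, Sfrp1, Frzb and Axin2 and the lowest for Sfrp2, Sfrp4 and Dkk3. These 3 libraries, whose titles share the number 3, also deviated from their group means alike over all tested genes (correlations 0.291 to 0.378), and the labels do not say what the number marks. With all 3 left out together, a fit added after the data were seen, edgeR called 0 members between windows, where it called 22.5% of all genes, and 1 at baseline, Frzb, where it called 16.8%. It called 0 members in the other 8 comparisons. In bulk RNA, fewer cells of a type and less RNA per cell cannot be told apart.

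Levels of different genes were compared as CPM per kilobase of exon, averaged over the 18 libraries. Dkk3 was the most abundant of the 10 genes at 103 CPM per kb, and ranked 461 of the 16073 genes that had both a tested count and an exon length. Sfrp1 was at 66.9, Sfrp2 at 61.0 and Frzb at 31.9 CPM per kb. Then came a gap to Wnt5a at 2.01 CPM per kb, and the other modulators were lower still, with Sfrp4 at 0.559, Dkk2 at 0.313 and Wif1 at 0.190 CPM per kb. The targets were lowest, with Axin2 at 0.106 and Lef1 at 0.021 CPM per kb. Among 16 genes for secreted Wnt inhibitors, Sfrp1, Sfrp2, Frzb and Dkk3 supplied 98.9% to 99.9% of the summed level per kb in each library. This list counts Dkk3, the most abundant, although its action on Wnt signalling is less clear than that of its relatives. The other inhibitors, Sfrp5, Dkk1, Dkk4, Dkkl1, Sost, Sostdc1, Notum, Cer1 and Draxin, did not pass the filter in these cells.

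**Figure D1:**
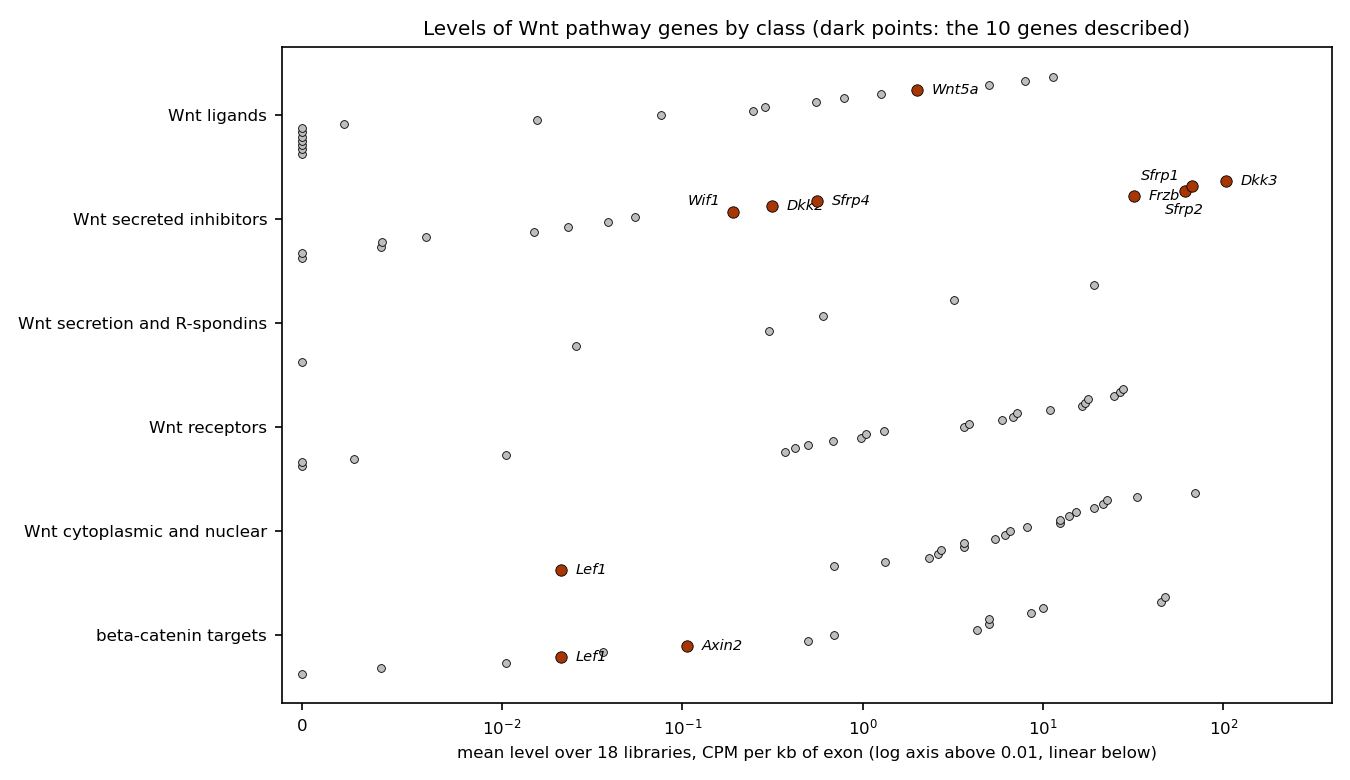
Mean level of every Wnt pathway gene listed, in CPM per kb of exon over 18 libraries, on an axis that is logarithmic above 0.01 and linear below, grouped by the role of the gene. Dark points mark the 10 genes described, with Lef1 standing in both lists it belongs to. Dkk3, Sfrp1, Sfrp2 and Frzb lie at 31.9 to 103 CPM per kb, while the other secreted inhibitors lie below 1.

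The bases just before the transcription start are shown for members at opposite ends of this range, the abundant Sfrp2 against the near-silent Dkk2, Axin2 and Lef1. RefSeq's promoter table for GRCm38.p6 held 6 of the 10 genes (not Wnt5a, Sfrp1, Sfrp4 or Dkk3), and the 250 bases before the start lay wholly outside the GENCODE gene model for these 4. Capitals mark CTTTG or its reverse complement CAAAG, the core letters that TCF/LEF factors recognise. For Lef1 the first of 4 listed starts is shown.
Sfrp2, chr3:83766071-83766320, plus strand: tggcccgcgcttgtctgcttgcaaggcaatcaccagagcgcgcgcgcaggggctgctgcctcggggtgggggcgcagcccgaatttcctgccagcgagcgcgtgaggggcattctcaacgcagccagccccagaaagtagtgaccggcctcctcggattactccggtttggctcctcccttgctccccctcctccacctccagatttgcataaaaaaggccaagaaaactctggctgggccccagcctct
Dkk2, chr3:132085042-132085291, plus strand: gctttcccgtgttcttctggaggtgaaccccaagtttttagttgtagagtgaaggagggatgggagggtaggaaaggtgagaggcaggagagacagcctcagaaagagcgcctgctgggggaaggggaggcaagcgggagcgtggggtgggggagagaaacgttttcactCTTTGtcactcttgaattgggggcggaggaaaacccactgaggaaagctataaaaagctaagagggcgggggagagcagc
Axin2, chr11:108920099-108920348, plus strand: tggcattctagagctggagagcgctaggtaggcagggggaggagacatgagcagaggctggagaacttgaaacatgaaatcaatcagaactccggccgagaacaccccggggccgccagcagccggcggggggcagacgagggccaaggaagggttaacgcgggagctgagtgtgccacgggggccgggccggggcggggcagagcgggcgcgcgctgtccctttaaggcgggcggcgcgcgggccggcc
Lef1, chr3:131110047-131110296, plus strand: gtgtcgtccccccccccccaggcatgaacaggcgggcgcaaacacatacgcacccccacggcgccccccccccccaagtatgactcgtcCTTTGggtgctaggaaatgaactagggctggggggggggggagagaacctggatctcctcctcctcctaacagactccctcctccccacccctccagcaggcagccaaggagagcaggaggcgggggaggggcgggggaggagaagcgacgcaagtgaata
The core was present 1 time in the Dkk2 and Lef1 windows and absent from the Sfrp2 and Axin2 windows. Of the member windows not shown, those of the abundant Frzb and the sparse Wif1 each held it 1 time. The later Lef1 windows held it 2, 1 and 3 times. Among all 32851 windows of this length in the table, 48.6% held it on either strand. The longer form CTTTGAT, which contains the core, was in 3.21% of all windows and in 0 of the 9 windows of the members. The Axin2 window was rich in G and C (69.2%, with 24 CpG), against a median over all windows of 52.4% and 6 CpG. A match of letters describes the sequence only and is not a binding site.

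Wnt5a, the ligand (GRCm38 chr14:28504750-28527448, plus strand), was detected in all 18 libraries and varied widely within groups. At P2 baseline it was at 9.48, 14.5 and 2.13 CPM, and at P10 baseline at 32.8, 23.6 and 6.22 CPM. After sham surgery it was at 16.7, 17.02 and 9.79 CPM at P2 and at 35.5, 18.2 and 9.24 CPM at P10. After resection it was at 10.1, 10.6 and 17.6 CPM at P2 and at 18.3, 21.0 and 10.2 CPM at P10. Replicates within P10 baseline and within P10 sham differed by more than the group means did, and the P10 range overlapped the P2 range under every treatment. Averaged over treatments, the P10 window was 1.65-fold above the P2 window, with a 95% interval of 0.961 to 2.83 (log2 fold change 0.72, standard error, SE, 0.37, adjusted p = 0.215). Without P10 sham replicate 1 this log2 fold change was 0.52. Resection against sham gave a log2 fold change of -0.18 (SE 0.64) at P2 and -0.35 (SE 0.64) at P10, both within the spread of the replicates (adjusted p = 1.00 each). Without P10 sham replicate 1 the P10 value became 0.27. The exons of Wnt5a share 4.58% of their bases with Gm2670 on the other strand, and reads were counted without regard to strand.

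Sfrp1, a secreted decoy receptor for Wnt ligands (chr8:23411502-23449632, plus strand), was high in all groups. Its lowest, median and highest levels were 187, 239 and 418 CPM over the 9 P2 window libraries. Over the 9 P10 window libraries they were 157, 296 and 478 CPM, so that the ranges nearly coincided. The log2 fold change between windows was 0.24 (SE 0.19, adjusted p = 0.457), and 0.14 without P10 sham replicate 1. In the order of group means, from 358 CPM after resection at P10 to 219 CPM at P2 baseline, the libraries of every pair of neighbouring groups overlapped.

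Sfrp2, a related decoy (chr3:83766321-83774316, plus strand), had its lowest group mean at P2 baseline. There it was at 105, 84.1 and 68.1 CPM, and in the P2 sham group at 157, 158 and 114 CPM. All 3 sham libraries therefore lay above all 3 baseline libraries, which were collected 3 days younger, and 9.96% of all genes did not overlap here. The log2 fold change was 0.74 (SE 0.37, adjusted p = 0.666). At P10 the same comparison overlapped, with 151, 126 and 87.0 CPM at baseline and 57.5, 111 and 154 CPM after sham surgery. The difference between the 2 ages in this step was -0.91 on the log2 scale (SE 0.51, adjusted p = 0.855), so the ages were not shown to differ. After resection Sfrp2 was at 238, 118 and 202 CPM at P2 and at 85.4, 159 and 190 CPM at P10, with means above sham at both ages but ranges that overlapped sham. Gm26771 on the other strand shares 16.1% of the exon bases of Sfrp2.

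Frzb, or Sfrp3, another soluble decoy (chr2:80411970-80447625, minus strand), was highest at P2 baseline. It was at 161, 149 and 110 CPM at P2 baseline and at 98.0, 82.8 and 49.7 CPM at P10 baseline, so every P2 library lay above every P10 library, while 22.4% of all genes tested did not overlap in this comparison. The P10 level was 0.550 of the P2 level (95% interval 0.338 to 0.895), with a log2 fold change of -0.86 (SE 0.33). Its adjusted p over the 16170 genes tested was 0.165 by edgeR and did not pass, while limma voom with quality weights called it (log2 fold change -0.998, adjusted p = 0.010) along with 22.5% of all genes. With the 3 libraries of title number 3 left out together, edgeR also called it (log2 fold change -1.07, adjusted p = 0.024), along with 16.8% of all genes.

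In the operated groups the Frzb levels of the ages overlapped. After sham surgery Frzb was at 96.3, 72.1 and 80.0 CPM at P2 and at 152, 76.1 and 72.9 CPM at P10. After resection it was at 109, 105 and 112 CPM at P2 and at 90.3, 77.9 and 167 CPM at P10. At P10 a single library was high in each operated group, P10 sham replicate 1 and P10 resected replicate 3. The other P10 sham libraries lay within the P2 sham range, and the other P10 resected libraries lay below the P2 resected libraries. The log2 fold change with age was 0.28 (SE 0.33) after sham surgery and 0.04 (SE 0.33) after resection. Without P10 sham replicate 1 the first became -0.15, and without P10 resected replicate 3 the second became -0.36. The sham age effect minus the baseline age effect was 1.14 on the log2 scale (SE 0.47), and its adjusted p was 0.674. From P2 baseline to P2 sham, all 3 sham libraries lay below all 3 baseline libraries (9.96% of all genes did not overlap), with a log2 fold change of -0.76 (SE 0.33, adjusted p = 0.626).

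**Figure D2:**
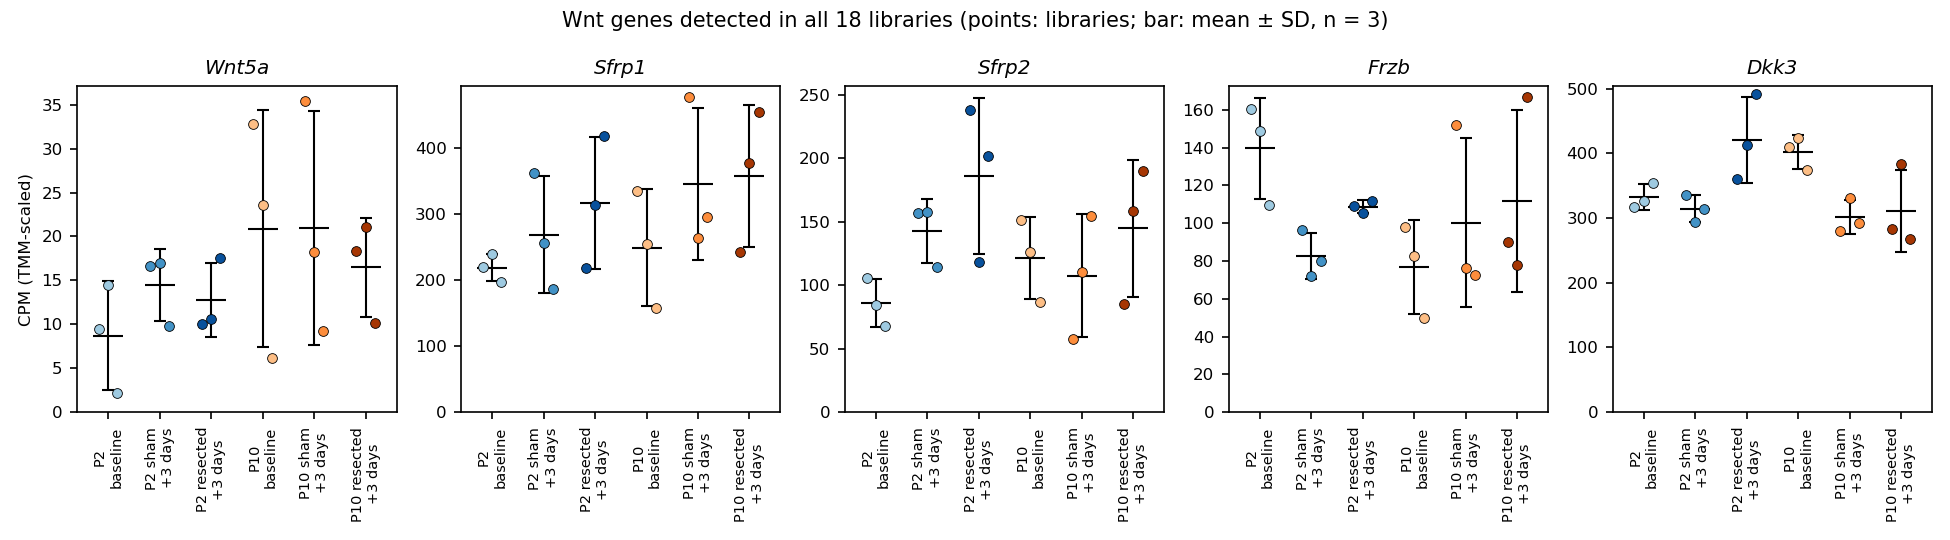
CPM of the 5 members detected in all 18 libraries, by group. Each point is a library and the bar gives the mean ± SD (n = 3). Frzb lies at 110 to 161 CPM at P2 baseline and at 49.7 to 98.0 CPM at P10 baseline, and Dkk3 lies within 267 to 492 CPM everywhere.

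Dkk3, a Dickkopf-related secreted glycoprotein whose action on Wnt signalling is less clear than that of its relatives (chr7:112116017-112159057, minus strand), had the narrowest range of group means. Over all 18 libraries it ran from 267 to 492 CPM, with a median of 333 CPM. The highest group mean was 1.40 times the lowest, the smallest such ratio among the 9 tested members. The log2 fold change between windows was -0.07 with an SE of 0.11 and a 95% interval of -0.30 to 0.15, the narrowest interval of the 9 tested members. This value averages age differences of opposite sign, 0.27 at baseline and -0.44 after resection.

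In 3 single comparisons the Dkk3 libraries did not overlap, and none of the 3 passed the test. At P2 it was at 336, 294 and 313 CPM after sham surgery and at 360, 412 and 492 CPM after resection. All 3 resected libraries lay above all 3 sham libraries (8.47% of all genes did not overlap), with a log2 fold change of 0.42 (SE 0.18, adjusted p = 1.00). At P10 it was at 280, 331 and 293 CPM after sham surgery and at 283, 384 and 267 CPM after resection, and the log2 fold change was 0.05 (SE 0.18, adjusted p = 1.00). The resection effect at P10 minus that at P2 was -0.38 (SE 0.26, adjusted p = 1.00). At baseline Dkk3 was at 317, 326 and 355 CPM at P2 and at 410, 423 and 374 CPM at P10, again without overlap, as for 22.4% of all genes (log2 fold change 0.27, SE 0.18, adjusted p = 0.457). After resection the P10 libraries were lower on average and overlapped the P2 libraries, with a log2 fold change of -0.44 (SE 0.18, 95% interval -0.82 to -0.05, adjusted p = 0.466). After sham surgery it was -0.06 (SE 0.18). From P10 baseline to P10 sham it was lower in every sham library, in a comparison where 10.0% of all genes did not overlap (log2 fold change -0.42, SE 0.18, adjusted p = 0.651).

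**Figure D3:**
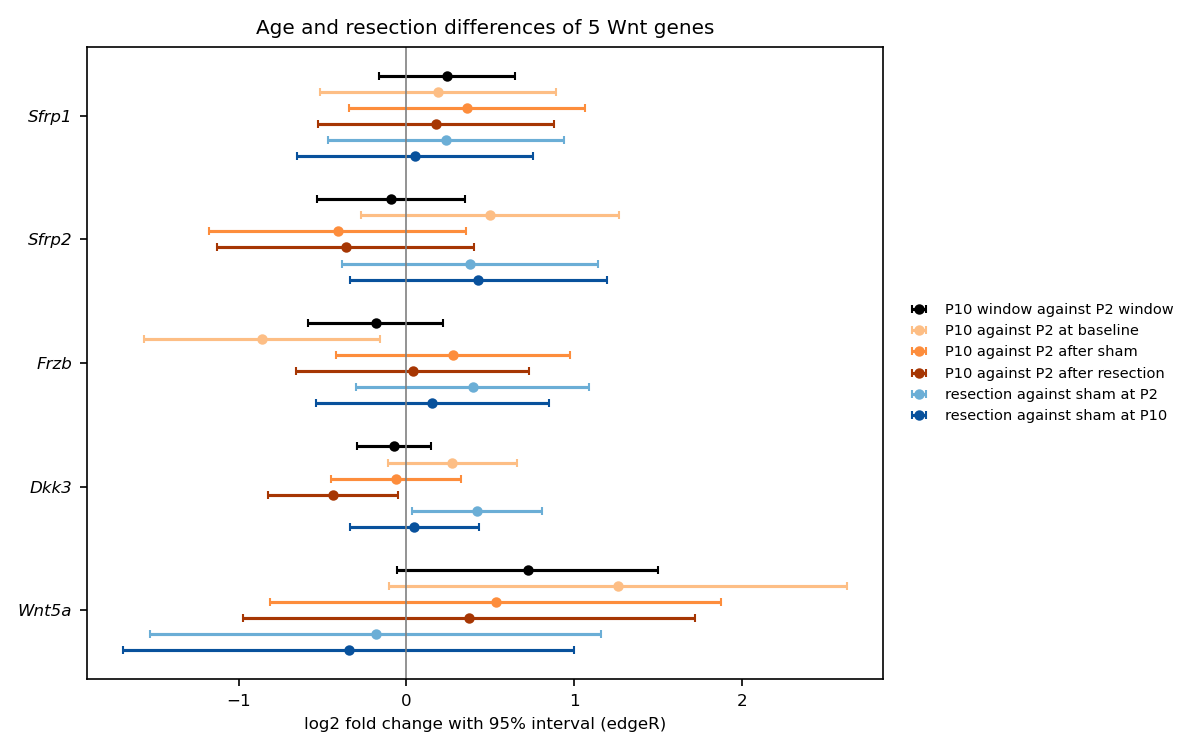
Log2 fold changes of the 5 members detected in all 18 libraries, with 95% intervals from edgeR, for the 4 comparisons of age and the 2 of resection against sham. Intervals of Dkk3 between windows run from -0.30 to 0.15 and those of Wnt5a from -0.06 to 1.50, and no adjusted p was under 0.05.

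Of the remaining modulators Sfrp4 (chr13:19623104-19632994, plus strand), a decoy of the same family as Sfrp1, differed most between windows. At P2 it was at 0, 0 and 3.23 CPM at baseline, at 0, 0.461 and 1.44 CPM after sham surgery, and at 0.880, 0 and 1.71 CPM after resection. At P10 it was at 3.76, 2.14 and 1.48 CPM at baseline, at 2.85, 5.76 and 3.54 CPM after sham surgery, and at 5.42, 1.46 and 7.92 CPM after resection. Counts were found in 9 of 9 P10 window libraries and in 5 of 9 P2 window libraries, and 5 of 9 P10 libraries lay above every P2 library. The highest P2 libraries were P2 baseline replicate 3 and P2 resected replicate 3, and the second of these also lay above P10 baseline replicate 3 and P10 resected replicate 2. The log2 fold change between windows was 2.13 (SE 0.99, adjusted p = 0.169), a 4.39-fold difference with a 95% interval of 1.03 to 18.7. That P2 baseline library held 53 of the 131 Sfrp4 counts of the P2 window, and without it the log2 fold change was 4.56 and passed (adjusted p = 0.009), as did 11.1% of all genes in that fit. It also passed without the filter on low counts (log2 fold change 2.18, adjusted p = 0.026), where 9.54% of all genes passed, and by limma voom with quality weights (3.97, adjusted p = 0.002), where 28.3% passed. After sham surgery, all P10 libraries lay above all P2 libraries (16.7% of all genes did not overlap). The log2 fold change was 2.68 (SE 1.76, adjusted p = 0.489), and it became 4.09 without P2 sham replicate 3 (adjusted p = 0.372). At baseline, with overlap, it was 1.20 (SE 1.68, adjusted p = 0.774) and ran from 0.61 to 8.50 with single libraries left out. Limma voom called Sfrp4 there (5.40, adjusted p = 0.038), along with 22.5% of all genes. After resection, also with overlap, the log2 fold change was 2.51 (SE 1.74, adjusted p = 0.832).

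Wif1, a secreted factor that binds Wnt ligands directly (chr10:121033960-121100650, plus strand), had 158 counts in all, from 9 of 18 libraries, and reached at most 2.22 CPM. Dkk2, a Dickkopf protein that binds Lrp5 and Lrp6 (chr3:132085292-132180304, plus strand), had 366 counts from 13 libraries. The highest Dkk2 level was 6.33 CPM in P2 resected replicate 1, against 0.812 and 1.82 CPM in the other P2 resected libraries. Neither gene showed a group whose libraries all stood apart from those of another group in the comparisons made. Their intervals were too wide to show a difference, with an SE of 1.19 on the log2 scale between windows for Wif1 and 1.25 for Dkk2.

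Axin2, which encodes a scaffold of the beta-catenin destruction complex and is used as a readout of canonical signalling (chr11:108920349-108950783, plus strand), had 193 counts over 17 libraries. At baseline it was at 0.414, 0.093 and 0.122 CPM at P2 and at 0.910, 1.23 and 0.592 CPM at P10, so that the P10 libraries lay above the P2 libraries. Axin2 passed the filter on low counts through the P10 window alone, since 7 of its 9 libraries and 1 of the 9 P2 window libraries reached the minimum of 0.512 unscaled CPM that 3 libraries must reach. A gene that passes in this way is more likely to be higher at P10, so its separation is given as a description. After sham surgery it was at 0.325, 0.138 and 0.131 CPM at P2 and at 2.80, 0 and 0.849 CPM at P10. After resection it was at 0.704, 0.342 and 0.275 CPM at P2 and at 0.547, 0.191 and 0.855 CPM at P10. The spread of the P10 sham libraries, from 0 to 2.80 CPM, covered every other group. Between windows the log2 fold change was 1.64 (SE 0.79, adjusted p = 0.185), and it was 2.08 (SE 1.39, adjusted p = 0.457) at baseline. Without P10 sham replicate 1 the value between windows was 1.14, and without P2 baseline replicate 1 the value at baseline was 3.01 (adjusted p = 0.444). Gm11670 on the other strand shares 3.8% of the exon bases.

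Lef1, a nuclear partner of beta-catenin and itself a target (chr3:131110471-131224356, plus strand), had 57 counts in all. They came from 5 libraries, of which P10 baseline replicate 1 held 33 at 2.00 CPM. The 3 P2 resected libraries were at 0.352, 0.214 and 0.385 CPM, and 1 P2 sham library was at 0.392 CPM. The P2 resected libraries also had counts for more genes, 19707 to 20163 against 16384 to 17213 in P2 sham. All libraries of P2 baseline, P10 sham and P10 resected had 0 counts. Apart from P10 baseline replicate 1, no library was above 0.392 CPM, near the limit that a count of 0 allows, and Lef1 was not tested. Gm43352 on the other strand shares 13.8% of its exon bases.

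**Figure D4:**
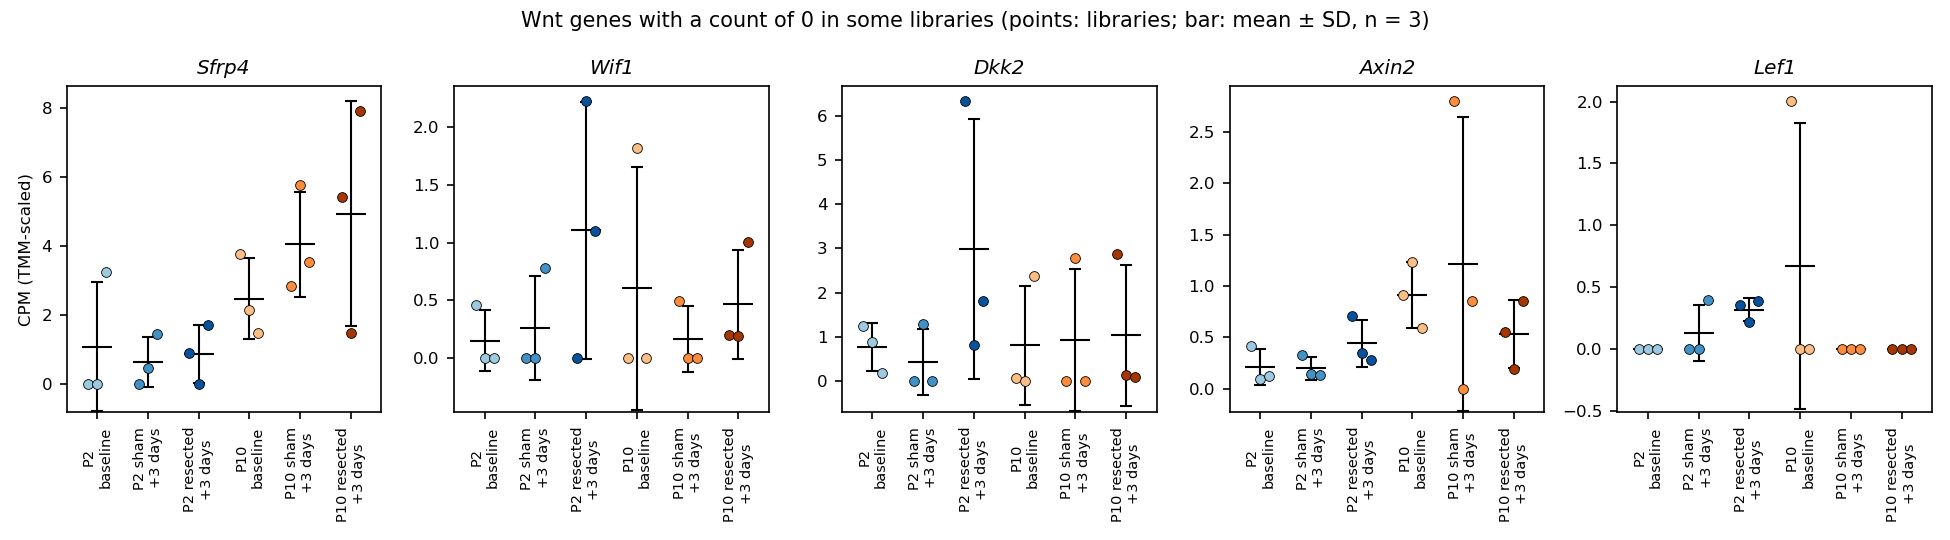
CPM of the 5 members that had a count of 0 in some libraries, by group. Each point is a library and the bar gives the mean ± SD (n = 3). Sfrp4 has counts in all 9 P10 window libraries, and single libraries carry much of the level of Dkk2 (6.33 CPM), Axin2 (2.80 CPM) and Lef1 (2.00 CPM).

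Counted over comparisons, the edgeR test called 0 of the 9 tested members between windows, where it called 13.5% of all genes tested (quasi-likelihood test, Benjamini-Hochberg adjustment). It also called 0 at baseline (4.38% of all genes), 0 after sham surgery (3.18%) and 0 after resection (0.86%) between P10 and P2. It called 0 in resection against sham at P2 (0.0%) and at P10 (0.0%), 0 in the difference between these effects (0.0%), 0 in sham against baseline at P2 (0.0%) and at P10 (0.00618%), and 0 in the difference of the sham and baseline age effects (0.0%). An unadjusted p under 0.05 was reached by 1 member between windows (28.3% of all genes), by 1 at baseline (18.7%), by 0 after sham surgery (16.3%) and by 1 after resection (8.77%). It was reached by 1 in resection against sham at P2 (4.51%) and by 0 at P10 (4.09%), by 0 in the difference of these effects (2.88%), by 1 in sham against baseline at P2 (7.6%) and 1 at P10 (7.4%), and by 1 in the remaining difference (6.6%). DESeq2 called 0 members in each of the 10 comparisons, where it called 18.7% of all genes between windows, 9.89% between the baseline groups, 7.37% between the sham groups and 3.07% between the resected groups. In resection against sham DESeq2 called 0.155% at P2, 0.241% at P10 and 0.148% in their difference, in sham against baseline 0.853% at P2 and 0.748% at P10, and 0.631% in the difference of the age effects. Limma voom with quality weights called 1 member between windows (28.3% of all genes), 2 at baseline (22.5%), 0 after sham surgery (4.37%), 0 after resection (5.62%) and 0 in the other 6 (0.0% to 0.00618%).

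Libraries of the compared groups did not overlap for 3 members at baseline, Frzb, Dkk3 and Axin2, the last of which was tested only through its P10 levels, where 22.4% of all genes tested did not overlap. They did not overlap for 1 member after sham surgery (16.7% of all genes), 0 after resection (23.3%) and 0 between windows (2.51%). In resection against sham they did not overlap for Frzb and Dkk3 at P2 (8.47%) and for 0 members at P10 (8.68%). In sham against baseline they did not overlap for Sfrp2 and Frzb at P2 (9.96%) and for Dkk3 at P10 (10.0%). The median log2 fold change of the 9 tested members was 0.03 between windows, beside -0.06 for all genes tested. It was 0.50 at baseline and 0.36 after sham surgery, beside -0.03 and -0.07 for all genes tested. After resection it was 0.04, beside -0.04. In resection against sham it was 0.42 at P2 and 0.15 at P10, beside 0.00 and 0.02 for all genes tested. The 9 members include Axin2, tested only through its P10 levels. They also include the sparse Sfrp4, Dkk2 and Wif1, whose SE was 1.68 to 2.38 at baseline. These comparisons share groups, and the sham libraries serve as controls for resection and as the treated side against baseline.

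Marker transcripts of several cell types also differed between the baseline groups, where the libraries of Frzb, Dkk3 and Axin2 did not overlap and none of these genes passed the test. Summed levels without overlap were higher at P10 for 8 mural cell markers, at 512 to 843 CPM at P2 and 1004 to 1984 CPM at P10, and for the 8 fibroblast markers, at 44464 to 52582 and 69879 to 103854 CPM. They were lower at P10 for 8 cardiomyocyte markers, at 937 to 1296 and 435 to 633 CPM, and for 9 epicardial markers, at 86.3 to 95.4 and 30.1 to 51.7 CPM. Of the epicardial sum, 79.3% to 100.0% came from Tbx18 in these libraries, and the other 8 epicardial markers summed to 3.49 to 18.2 CPM at P2 and 0 to 3.26 CPM at P10. At baseline edgeR called 3 fibroblast and 3 mural markers higher, 7 of 10 cell cycle markers and 1 epicardial marker, Tbx18, lower, and 0 cardiomyocyte markers. At P2, the 9 macrophage markers summed to 5.29 to 165 CPM after sham surgery and to 60.9 to 387 CPM after resection, where the libraries of Frzb and Dkk3 did not overlap and neither gene passed the test. These sums overlapped, and 0 of the 9 were called. At P2 the number of genes with a count per library did not overlap, at 16384 to 17213 after sham surgery and 19707 to 20163 after resection. Its part in the values of Frzb and Dkk3 was not tested. Every gene of these lists had counts in the groups compared, except 1 epicardial marker at P2 baseline and 5 at P10 baseline. Between the sham groups, where the libraries of Sfrp4 did not overlap, the cardiomyocyte sum was 720 to 1000.4 CPM at P2 and 136 to 678 CPM at P10, the epicardial sum 68.5 to 77.1 and 30.8 to 40.0 CPM, and the fibroblast sum 47945 to 60506 and 65449 to 90727 CPM. In these groups 1 epicardial marker at P2, and 2 epicardial markers and 1 cardiomyocyte marker at P10, were at 0. From P2 baseline to P2 sham, where those of Sfrp2 and Frzb did not overlap, the epicardial sum was the only one of the cell type sums without overlap, at 86.3 to 95.4 and 68.5 to 77.1 CPM. Its parts did overlap, with Tbx18 at 69.8 to 91.9 and 43.1 to 73.2 CPM. The other 8 epicardial markers summed to 3.49 to 18.2 and 3.59 to 25.4 CPM, and 0 of the 9 were called. From P10 baseline to P10 sham, where the libraries of Dkk3 did not overlap, the cell cycle sum went from 136 to 351 CPM to 61.5 to 121 CPM without overlap. The 10 cell cycle markers summed to 721 to 1398 CPM over the P2 window and to 61.5 to 351 CPM over the P10 window. The part of these transcripts in the values of the members was not tested.

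The wider pathway was read from 84 further genes, of which 59 passed the filter. Between windows 6 were called higher and 4 lower at P10, 16.9% of those tested against 13.5% of all genes. The 4 include Rspo2, which passed the filter through the P2 window alone. DESeq2 called 17 of the 59 and limma voom 24 in this comparison, and called 18.7% and 28.3% of all genes. In the same comparison edgeR called 10 of 10 cell cycle and 5 of 8 cardiomyocyte markers lower, 3 of 8 fibroblast markers higher, 3 of 8 mural cell markers higher and 1 lower, 1 of 9 epicardial markers lower, and 0 of 9 macrophage and 0 of 8 endothelial markers. Their part in the pathway calls was not tested. The ligands Wnt9a, Wnt11 and Wnt10b rose. Wnt9a went from 20.6 ± 9.03 to 55.1 ± 15.9 CPM (SD, n = 9 each, log2 fold change 1.52, SE 0.19, adjusted p = 2.7e-05) with no overlap between windows. Wnt11, a ligand of the non-canonical branch, went from 8.61 ± 2.96 to 32.9 ± 12.4 CPM (SD, n = 9 each, log2 fold change 1.90, SE 0.21, adjusted p = 9.9e-06), and 8 of 9 P10 libraries lay above every P2 library. Wnt10b was low, at 0.724 ± 0.776 and 3.01 ± 1.67 CPM (SD, n = 9 each, log2 fold change 2.16, SE 0.60, adjusted p = 0.023). Wnt9a at 11.4 and Wnt5b at 7.97 CPM per kb were the ligands above Wnt5a in mean level over the 18 libraries, together with Wnt11 at 5.01.

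Among receptors, Fzd1, a Frizzled receptor, rose from 54.0 ± 13.4 to 89.2 ± 12.1 CPM (SD, n = 9 each, log2 fold change 0.74, adjusted p = 0.001). Kremen1, a Dickkopf receptor, rose from 38.5 ± 13.5 to 67.0 ± 22.02 CPM (adjusted p = 0.032). Wls, which carries ligands to the cell surface, rose from 148 ± 30.7 to 188 ± 18.1 CPM (adjusted p = 0.024). Each of these differences was smaller on the log2 scale than those of the ligands.

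Lower at P10 was Ccnd1, the cyclin D1 gene, a beta-catenin target that also responds to growth signals, from 291 ± 91.7 to 134 ± 35.7 CPM (adjusted p = 0.0002). Ccn4, or Wisp1, another target, fell from 36.7 ± 16.8 to 19.2 ± 7.66 CPM (adjusted p = 0.006). Bcl9, a beta-catenin co-activator, fell from 13.7 ± 4.24 to 8.71 ± 2.61 CPM (adjusted p = 0.048). Rspo2, which amplifies Wnt signalling at the receptor, had counts in 8 of 9 P2 window libraries, up to 10.8 CPM, and in 3 of 9 P10 window libraries, up to 0.963 CPM (adjusted p = 0.012). Rspo2 passed the filter through the P2 window alone, with 6 of 9 libraries at its minimum against 2 of 9 in the P10 window, so its call is given as a description. The call of Bcl9 was lost when any of 16 of the 18 libraries was left out (adjusted p up to 0.131), that of Kremen1 for any of 10 (up to 0.088) and that of Wls for any of 5 (up to 0.068). Wnt10b lost its call without P2 resected replicate 2 or 3 or P10 baseline replicate 2 (adjusted p up to 0.055).

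Fewer genes were called in the comparisons within a treatment. At baseline Wnt9a, Fzd1 and Wls were called higher and Ccnd1 lower at P10, and after sham surgery Wnt9a and Wnt11 were called higher. At baseline the 4 genes called by edgeR stood beside 10 by DESeq2 and 17 by limma voom, where the 3 tools called 4.38%, 9.89% and 22.5% of all genes. After sham surgery the 2 stood beside 8 and 2, where they called 3.18%, 7.37% and 4.37% of all genes. After resection only Wnt11 of these 59 genes was called (log2 fold change 1.78, SE 0.36, adjusted p = 0.021) by edgeR, beside 1 by DESeq2 and 4 by limma voom, with 0.86%, 3.07% and 5.62% of all genes. In the 6 comparisons that involve resection against sham or sham against baseline, 0 of the 59 genes were called by edgeR, and 0 to 7 had an unadjusted p under 0.05. DESeq2 called 2 in sham against baseline at P2, 1 at P10, 1 in the difference of the age effects and 0 in the other 3, and limma voom called 0 in each.

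Summed over 19 ligand genes, levels ran from 12.4 to 26.8 CPM per kb in the P2 window and from 26.8 to 51.0 CPM per kb in the P10 window. Summed over 16 secreted inhibitor genes they ran from 215 to 372 CPM per kb in the P2 window and from 204 to 326 CPM per kb in the P10 window. The inhibitor sum counts Dkk3, its most abundant gene, whose action on Wnt signalling is less clear. The ratio of the inhibitor sum to the ligand sum averaged 16.9 ± 3.11 for P2 baseline, 9.87 ± 0.855 for P2 sham and 16.1 ± 1.49 for P2 resected libraries (SD, n = 3 each). For P10 baseline the ratio averaged 7.60 ± 3.17, for P10 sham 5.43 ± 0.886 and for P10 resected 8.04 ± 2.74 (SD, n = 3 each). These sums were chosen after the values were seen, and rest on mRNA alone. They are given without a test.

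**Figure D5:**
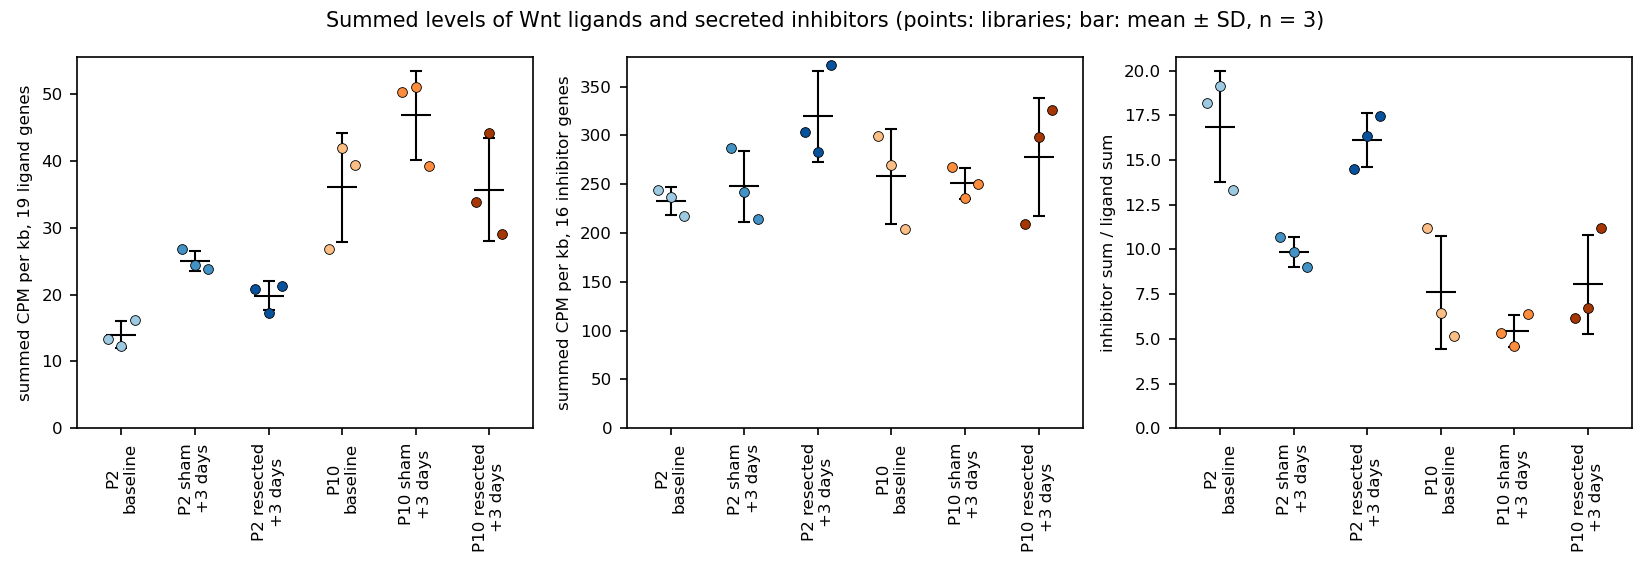
Summed CPM per kb of 19 Wnt ligand genes, of 16 secreted inhibitor genes (Dkk3 among them), and the ratio of the second to the first, by group. Points are libraries and bars give the mean ± SD (n = 3). Ligand sums lie at 12.4 to 26.8 in the P2 window and 26.8 to 51.0 in the P10 window, while the ratio runs from 19.1 down to 4.62.

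The genes whose log2 CPM ran most like each member over the 18 libraries were listed as a description. The closest were Itga2 for Wnt5a (Pearson r = 0.895), Loxl4 for Sfrp1 (0.869), Paqr6 for Sfrp2 (0.707), Cldn10 for Sfrp4 (0.893), Trim25 for Frzb (0.897) and Srebf2 for Dkk3 (0.904). For Wif1, Dkk2 and Axin2, whose counts were sparse, the closest were Mpo (0.755), Degs2 (0.797) and Gm9825 (0.752). The libraries share 6 groups and their depth, so these values mix differences between groups with those within. Between members the highest correlation was that of Wnt5a with Sfrp1, at 0.58.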

How the data were processed

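Bulk RNA of GFP+ Tcf21-lineage cells gave 18 libraries, grouped by the sample labels. The deposited values are whole-number counts per gene symbol, not normalized. The authors made them by trimming with fastp 0.20.0, mapping to GRCm38.p6 with STAR 2.7.0f and counting exonic reads, without strand, with featureCounts of Subread 1.6.4 (submitters' processing notes and the study's methods). Gene positions and exon lengths came from GENCODE vM21, a release near the authors'.

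The main test was the quasi-likelihood test of edgeR 4.0.16 (R 4.3.3) with TMM scaling. The filterByExpr defaults (minimum count 10, minimum total 15) left 16170 genes. Every library entered 1 fit with a mean for each group, and p-values were adjusted by Benjamini-Hochberg over all genes tested, with 0.05 as the threshold. The script was checked on simulated counts. An adjusted p printed without another tool comes from this fit. Replicates differed by more than sampling noise in all 18 pairs (chi-square per gene 34.2 to 295).

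The text names all 10 members, other Wnt genes called in a comparison, and the tested genes that correlate best with each member. The members and lists were chosen with earlier results of these data known. Alternatives were DESeq2 1.42.0, limma 3.58.1 (voom with quality weights), RLE scaling, 2 other filters, a replicate block, a title-number block and a fit without 3 libraries (both added after the data were seen), fits on the compared groups alone, and leaving out each library.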

Additional observations from a re-analysis of the deposited data

Results flagged for a closer look

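Within the 9 libraries of a window, the highest or lowest value of a member was compared with its nearest neighbour, in 20 sets, and chance alone flags about 1 in 20 where values spread normally, a rate that need not hold for sparse counts with many libraries at 0. In 4 sets a single library stood apart. Wif1 was at 2.22 CPM in P2 resected replicate 2, and the next library of the P2 window was at 1.10 CPM. Dkk2 was at 6.33 CPM in P2 resected replicate 1, against 1.82 CPM in the next. Axin2 was at 2.80 CPM in P10 sham replicate 1, against 1.23 CPM in the next library of the P10 window. Lef1 was at 2.00 CPM in P10 baseline replicate 1 and at 0 in the other P10 window libraries. All 4 are genes with few counts, and the libraries differ from gene to gene. P10 sham replicate 1 and P10 baseline replicate 1 both carry title number 3, and they deviated alike over all tested genes (correlation 0.328).

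The mean differences of Axin2 after resection had opposite signs at the 2 ages, and neither passed the test (adjusted p = 1.00 each by edgeR). All P2 resected libraries lay above the P2 sham mean, with a log2 ratio of mean CPM of 1.15, and all P10 resected libraries lay below the P10 sham mean, with a log2 ratio of -1.20. The difference between the fitted effects was -2.31 on the log2 scale (standard error 1.91, adjusted p = 1.00 by edgeR), so the ages were not shown to differ. Without P10 sham replicate 1 the fitted P10 effect was 0.30 in place of -1.19, and by limma voom it was 0.83.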

How the results depend on the processing

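The number of members called was 0 in each of the 10 comparisons, and between windows it became 1 of 9 (Sfrp4) by limma voom with quality weights, which called 28.3% of all genes, 1 of 10 (Sfrp4) without a filter on low counts (9.54%), and 0 to 1 when single libraries were left out, the 1 being Sfrp4 without P2 baseline replicate 3 (11.1%). At baseline it became 2 of 9 (Frzb and Sfrp4) by limma voom (22.5%). With the replicate number as a block it stayed 0 in every comparison. After the data were seen, 2 fits were added. With the 3 libraries of title number 3 left out together, the count at baseline became 1 of 9 (Frzb, 16.8% of all genes). With the number that ends each title as a block, the count at baseline stayed 0. In this block, a library whose title shares no such number with another library adds nothing to the differences. Such libraries were P2 resected replicates 1 and 2, P10 resected replicate 1 and P10 sham replicate 3. The P2 resected group then rests on replicate 3 alone. Same-numbered titles deviated together for number 3 (3 of 3 pairs over 0.1), and in 2 of 15 pairs for numbers 4 to 6. No label tied a replicate number to a litter or batch, and the numbers were not used as pairs because not every same-numbered pair of libraries deviated together. The correlation of deviations was over 0.1 in 15 of 45 same-numbered pairs (median 0.047, range -0.135 to 0.378) and in 12 of 90 others (median -0.024), and 10 of 18 libraries correlated best with their own number, a hint of some pairing from the data and not from the design. Over all genes the block moved the calls between windows from 2183 to 2745.

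The cause of the following changes of sign was not tested. By limma voom the log2 fold change was -0.13 for Frzb with age after resection, and in resection against sham it was 0.055 for Wnt5a at P2, 0.27 for Wnt5a at P10 and 0.83 for Axin2 at P10. The block gave 0.082 for Wnt5a at P2. With single libraries left out the sign also changed for Sfrp2 between windows (-0.21 to 0.0091), for Sfrp1 at baseline (-0.084 to 0.43) and after resection with age (-0.037 to 0.43), for Frzb with age after sham surgery (-0.15 to 0.46) and after resection (-0.36 to 0.24), and for Wnt5a with age after sham surgery (-0.078 to 0.89). In resection against sham it changed for Sfrp1 at P2 (-0.012 to 0.52) and P10 (-0.16 to 0.36), and at P10 for Frzb (-0.26 to 0.58), Dkk3 (-0.13 to 0.15), Wnt5a (-0.70 to 0.27) and Axin2 (-1.77 to 0.30). Leaving out the 3 libraries together gave -0.086 for Sfrp1 at baseline, -0.030 for Frzb and 0.038 for Dkk3 with age after sham surgery, and in resection against sham at P10 -0.0014 for Dkk3, 0.27 for Wnt5a and 0.30 for Axin2. The title number as a block gave -0.025 for Sfrp1 between windows and -0.16 for Sfrp1 at baseline. With age after resection it gave -0.30 for Sfrp1, -0.12 for Frzb and -1.56 for Wnt5a. In resection against sham at P2 it gave 1.16 for Wnt5a. In that block the P2 resected group rests on replicate 3 alone, which bears on all but the baseline value. None of these values passed the test in the main or the changed form. Of the wider pathway, Bcl9 also lost its call between windows with RLE size factors, without a filter, with either block and without the 3 libraries, Wls without a filter and with the title block, Kremen1 and Wnt10b with the title block, and Rspo2 by limma voom. Over all genes, calls between windows were 2183 by edgeR and 4569 by limma voom, at baseline 709 by edgeR, 1600 by DESeq2 and 3645 by limma voom, after sham surgery 515 by edgeR and 1191 by DESeq2, and after resection 139 by edgeR, 496 by DESeq2 and 908 by limma voom. Without the 3 libraries together edgeR called 3778 between windows, 2820 at baseline, 451 after resection and 463 from P2 baseline to P2 sham (0 with them). With the title block it called 1470 at baseline. Low counts limit what could be seen of Wif1, Dkk2, Axin2 and Lef1.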
